A study of Mus musculus with 30 samples.

Results

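The immediate early genes Egr1, Egr2, Egr3, Fos, Fosb, Jun, Junb, Ier2, Btg2 and Atf3 were followed across 30 RNA-seq libraries of cultured fetal testis. They were taken by symbol, mapped from the Ensembl identifiers of the count tables, and make up 10 of the 49315 genes listed there. Testes of C57BL/6 fetuses were dissected free of the mesonephros on gestational day 14 and cultured for 24 h. The cultures received mono-(2-ethylhexyl) phthalate (MEHP) at 100 µM (n = 6), all-trans retinoic acid (ATRA) at 1 µM (n = 5), MEHP at 100 µM with ATRA at 1 µM (n = 4) or the DMSO vehicle alone (n = 15), and DMSO was present at the same dilution in every culture. MEHP is the monoester released from a common plasticizer, and ATRA is the ligand of the retinoic acid receptors. Sample titles carry a second number whose meaning is not stated and which lies either below or above 500. All 6 MEHP libraries lie in the upper range and all 5 ATRA and 4 MEHP + ATRA libraries in the lower range, while 6 vehicle libraries are upper and 9 are lower. Each treatment was therefore compared with vehicle libraries from the same range only. The labels do not say which libraries came from which fetus or litter, so p-values measure the spread between these libraries, which may be in part technical.

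Immediate early genes are transcribed within minutes of a stimulus from factors that the cell already holds, and their mRNAs are short-lived. Serum response factor with its ETS partners, the CREB and ATF factors and MEF2 act on their promoters downstream of the MAP kinase pathways, and many of their products are transcription factors that act on a later set of genes. The level read once, after a day in culture, is called the standing level here. It misses a first wave at the start of treatment and would include any response to harvest, which was not measured.

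Libraries held 17551454 to 29306917 counts each. Testis cell markers were read throughout: none of the 10 Sertoli, 7 Leydig and 8 germ cell markers was at 0 in any library. At these depths that is a weak measure of presence, since no macrophage or erythroid marker was at 0 either. The Sertoli markers summed to 1841 to 3468 CPM (counts scaled to the library total and by TMM factors) over all groups. The 8 mesonephros markers summed to 31.3 to 61.9 CPM. Emx2 alone averaged 31.1 to 36.6 CPM by group, so the sum is mostly that of 1 gene and was not used to judge the dissection.

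Egr1, Egr2 (chromosome 10, 67535475 to 67542188) and Egr3 (chromosome 14, 70077445 to 70080157) encode zinc finger transcription factors that bind a common GC-rich site. Fos (chromosome 12, 85473890 to 85477273) and Fosb (chromosome 7, 19302696 to 19310051) encode AP-1 subunits that bind DNA only as dimers with a Jun protein. Jun (chromosome 4, 95049034 to 95052222) and Junb (chromosome 8, 84974484 to 84978718) encode these partners. Ier2 (chromosome 8, 84661331 to 84662852) encodes a small nuclear protein, and Btg2 (chromosome 1, 134075170 to 134079120) an antiproliferative protein that recruits the deadenylase of mRNAs. Atf3 (chromosome 1, 191170296 to 191218039) encodes a stress-induced factor of the CREB and ATF family. All 10 genes are protein-coding, and the coordinates of 9 equal those of GENCODE M21 on GRCm38, all but Egr3. Jun overlaps the antisense gene Junos, and Junb overlaps Prdx2 on the other strand. The strand setting of the counting is not given in the sources used here, so reads of these overlapping genes cannot be told apart.

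RefSeq start-site windows, 250 bases before to 50 bases after the start on GRCm38.p6, were used for 7 of the 10 genes. Those left out were Egr1, Egr3 and Ier2. Windows of 4 of the 7 are shown. Btg2 (chr1:134079106-134079405, minus strand) fell with ATRA and holds a full cAMP response element. Egr2 (chr10:67537619-67537918, plus strand, the middle of 5 windows listed) holds a serum response element core. Fos (chr12:85473640-85473939, plus strand) is an AP-1 gene with a TATA box 33 bases before the start. Atf3 (chr1:191183284-191183583, minus strand) passed no test. The Atf3 window, the only 1 listed for it, lies inside the gene as counted (191170296 to 191218039). Sequence at the outer 5′ end of Atf3 was thus not searched. Each window is written 5′ to 3′ on the strand of the gene, and capitals mark the motifs found, which are named after the sequences.
Btg2: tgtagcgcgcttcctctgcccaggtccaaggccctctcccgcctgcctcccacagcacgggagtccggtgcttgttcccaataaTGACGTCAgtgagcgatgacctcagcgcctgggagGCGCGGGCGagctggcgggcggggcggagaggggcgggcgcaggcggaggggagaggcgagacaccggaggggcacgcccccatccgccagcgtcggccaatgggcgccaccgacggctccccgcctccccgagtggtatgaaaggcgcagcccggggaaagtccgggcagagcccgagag
Egr2: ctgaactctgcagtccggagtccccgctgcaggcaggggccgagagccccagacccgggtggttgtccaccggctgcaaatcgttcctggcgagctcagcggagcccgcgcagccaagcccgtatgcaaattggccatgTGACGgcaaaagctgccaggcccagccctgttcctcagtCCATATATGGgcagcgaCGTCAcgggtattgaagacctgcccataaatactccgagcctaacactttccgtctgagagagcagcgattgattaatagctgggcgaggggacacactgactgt
Fos: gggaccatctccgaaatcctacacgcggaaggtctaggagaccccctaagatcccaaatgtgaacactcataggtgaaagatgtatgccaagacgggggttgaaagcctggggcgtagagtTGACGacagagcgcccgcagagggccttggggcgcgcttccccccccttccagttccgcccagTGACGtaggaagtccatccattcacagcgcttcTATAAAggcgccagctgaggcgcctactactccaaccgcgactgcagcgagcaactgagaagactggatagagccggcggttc
Atf3: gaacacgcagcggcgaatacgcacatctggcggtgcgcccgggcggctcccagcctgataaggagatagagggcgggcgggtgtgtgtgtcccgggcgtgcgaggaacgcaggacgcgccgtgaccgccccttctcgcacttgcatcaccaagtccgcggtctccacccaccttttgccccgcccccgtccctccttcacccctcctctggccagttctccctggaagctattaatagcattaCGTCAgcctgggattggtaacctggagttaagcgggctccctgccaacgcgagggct

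Motifs were searched on both strands by their letters. The core of the cAMP response element, TGACG, written CGTCA where it lies on the other strand, was in 6 of the 7 windows (Atf3, Btg2, Egr2, Fos, Fosb and Junb, not Jun), and in 20.8% of 32851 RefSeq windows of the same length. The full element TGACGTCA, which holds the core on both strands, was in Btg2 alone, 166 bases before the start, and in 1.79% of all windows. A CArG box, the core of the serum response element, was in Egr2 alone of the 7 windows, 72 bases before the start, and in 1.63% of all windows. The EGR site GCGNGGGCG was in Btg2 and Fosb, 131 and 50 bases before the start, and in 5.55% of all windows. A TATA box (TATAAA) was in Fos, 33 bases before the start, and in Junb at the RefSeq start itself, and in 13.6% of all windows. The 5′ end of Junb as counted, 84978718 on the minus strand, lies within its window and downstream of that start. The distance of its TATA box thus depends on the start used. The AP-1 site TGANTCA, the ETS core CCGGAA and the DR5 repeat of retinoic acid receptors were in none of the 7 windows, and in 7.81%, 14.9% and 0.009% of all windows. A match describes these letters in these windows and shows no binding. Elements farther from the start, the outer 5′ end of Atf3 and the promoters of Egr1, Egr3 and Ier2 were not searched. A missing match thus does not mean a missing element.

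**Figure D1:**
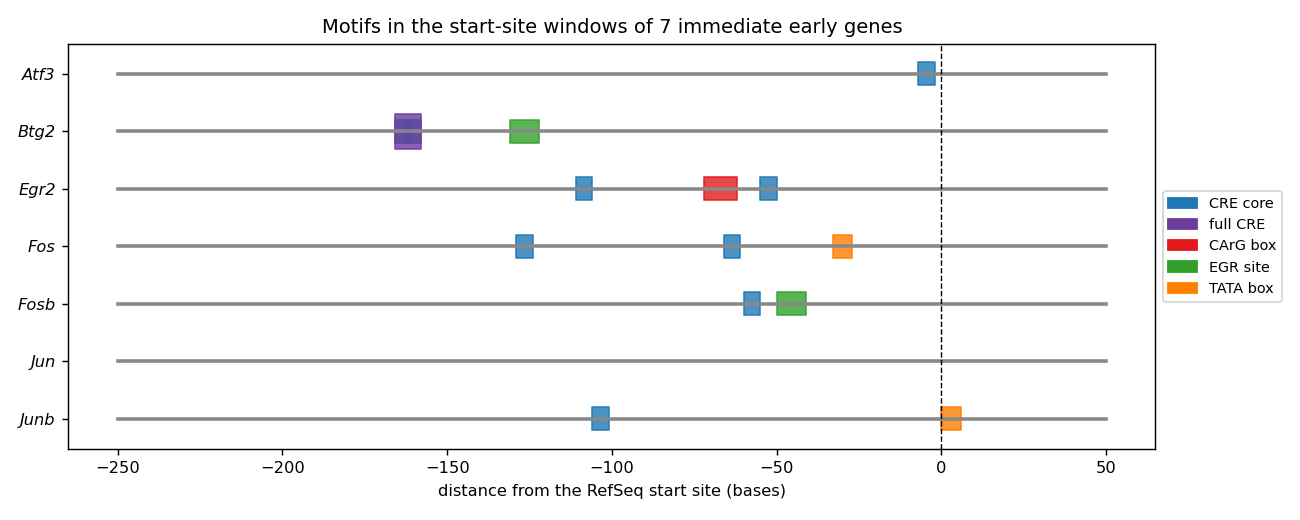
Motifs in the start-site windows of 7 immediate early genes, drawn to scale against the distance from the RefSeq start site in bases (dashed line at 0); colours name the motif, and the full element of Btg2 covers its 2 cores. There are 6 windows with the core of the cAMP response element, the window of Jun holds none of the motifs searched, and the only CArG box in these windows is that of Egr2.

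The 10 genes differed widely in their standing level. Over the 15 vehicle libraries, on the TPM scale (per length, computed here from counts and listed gene lengths), Jun averaged 125 ± 9.95 TPM and Ier2 124 ± 11.9 TPM (SD, n = 15). Btg2 followed at 63.1 ± 5.57 TPM, Egr1 at 34.5 ± 6.38 TPM and Junb at 18.5 ± 2.97 TPM. Atf3, at 11.9 ± 1.94 TPM, Fos, at 5.14 ± 0.94 TPM, and Egr3, Egr2 and Fosb, at 2.27 ± 0.83, 1.72 ± 0.52 and 0.499 ± 0.155 TPM, stood below the median of the genes tested, 13.9 TPM. The ranges of neighbours in this order overlapped between libraries, except Ier2 over Btg2, Btg2 over Egr1 and Atf3 over Fos. Within single libraries the order always held, except Jun over Ier2 (46.7% of libraries) and Egr3 over Egr2 (73.3%). Vehicle libraries held 10 to 42 reads of Egr3 and 57 to 111 reads of Fos, so counting limits the precision of these low genes.

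MEHP alone lowered 2 of the 10 genes, Egr1 and Egr3, and ATRA alone lowered 6, Egr1, Egr2, Egr3, Junb, Ier2 and Btg2. The co-exposure lowered 9, all but Atf3. Of these, Fos and Jun did not pass in a fit with a block on the first title number. None was called higher with any treatment. A gene was called where the edgeR quasi-likelihood test gave an adjusted p under 0.05 over all 19323 genes tested, all 10 members among them. Of all genes tested, the MEHP comparison called 1.84% lower, the ATRA comparison 9.03% and the co-exposure 14.7% (4.72%, 18.1% and 29% in either direction). The median log2 fold change of the 10 genes was −0.12 for MEHP, −0.55 for ATRA and −0.76 for the co-exposure, beside −0.014, −0.00018 and −0.014 over all genes tested. Every treated library lay below every vehicle library of its range for 1 of the 10 genes in the MEHP comparison, 4 in the ATRA comparison and 8 in the co-exposure. Such a separation downwards was met by 0.637%, 4.54% and 8.5% of all genes tested in these comparisons. ATRA and MEHP + ATRA were set against the same 9 vehicle libraries, so their values are given side by side and not as independent results. The 10 genes were selected with earlier results of these data known, and their counts describe them only.

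**Figure D2:**
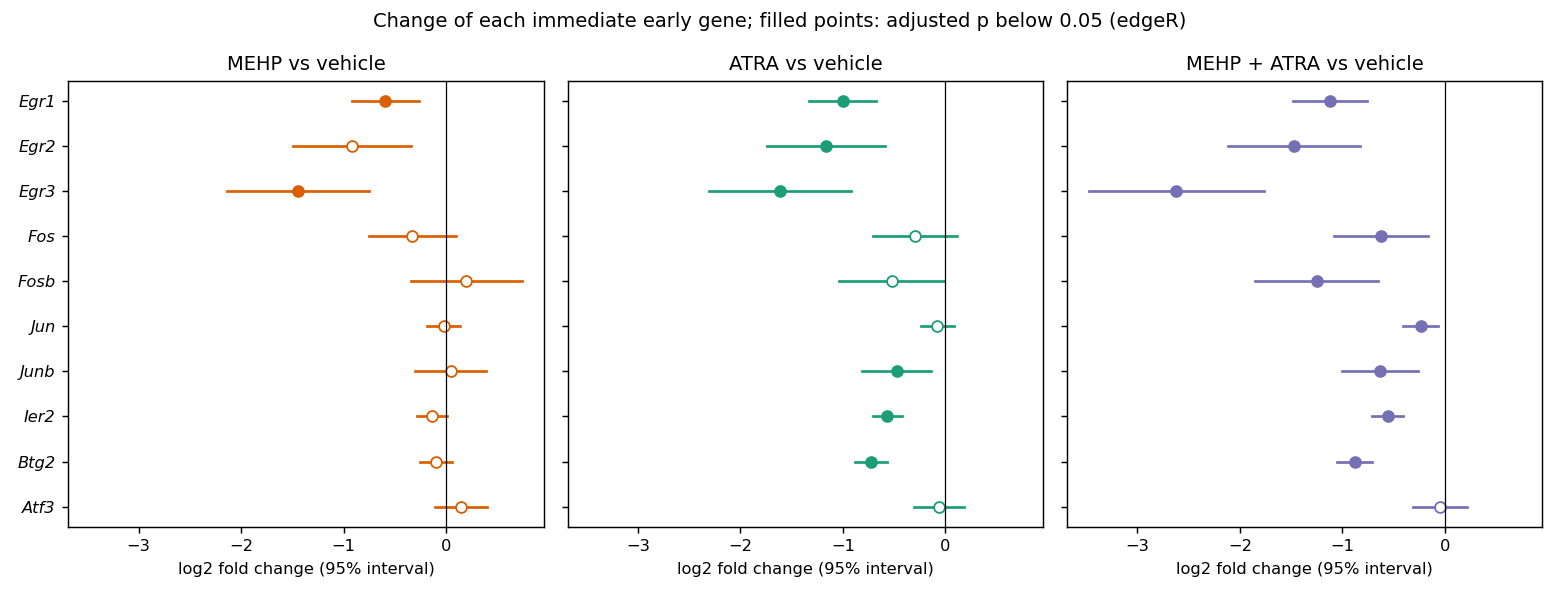
Log2 fold change of each immediate early gene in 3 comparisons with the vehicle libraries of the same range, with 95% intervals from the edgeR fit; filled points had an adjusted p under 0.05. The MEHP panel has 2 filled points (Egr1 and Egr3), the ATRA panel 6 and the MEHP + ATRA panel 9, and Atf3 lies at 0 within its interval in all 3 panels.

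Egr1 (ENSMUSG00000038418, chromosome 18, 34859823 to 34864984), the best measured of the EGR genes at 376 to 1663 reads per library, was lower under all 3 treatments. MEHP libraries held 24.9 to 46.8 CPM of it (median 30.7), against 38.0 to 63.1 CPM (median 46.8) in the 6 upper-range vehicle libraries. Of the 6 MEHP libraries, 5 lay below all of these, and MEHP replicate 4 lay among them. The log2 fold change was −0.60 ± 0.16 (SE; adjusted p = 0.0229, edgeR) or −33.8%. Leaving out MEHP replicate 1, 3 or 5 or vehicle replicate 3 or 11 ended this call (adjusted p of 0.0761 at most), as did a fit of the upper-range libraries alone (adjusted p = 0.0667). The 5 ATRA libraries held 34.2, 18.7, 20.4, 23.0 and 20.1 CPM and the 4 MEHP + ATRA libraries 26.5, 17.5, 21.2 and 21.1 CPM, against 29.7 to 57.7 CPM (median 48.3) in the 9 lower-range vehicle libraries. All but ATRA replicate 1, which stood above the lowest vehicle library, were below every vehicle library. Egr1 fell by 1.0 ± 0.16 in log2 with ATRA (adjusted p = 1.83e-05, edgeR) and by 1.12 ± 0.18 with MEHP + ATRA (adjusted p = 7.71e-06), and both calls held in each of 30 fits without 1 library.

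Egr2, a zinc finger factor best known from Schwann cells and the hindbrain, was at 9 to 62 reads per library. MEHP libraries held 0.558 to 1.59 CPM (median 0.949), against 0.778 to 2.74 CPM (median 1.96) in upper-range vehicle libraries. The groups overlapped, with 3 MEHP libraries below all vehicle libraries, and the log2 fold change of −0.92 ± 0.28 did not pass (adjusted p = 0.0527, edgeR). It did pass without vehicle replicate 4, MEHP replicate 2 or 4 or MEHP + ATRA replicate 1 (adjusted p down to 0.0114), by DESeq2 (0.0297) and with no range term (0.0189). Egr2 was at 1.07, 0.785, 0.583, 0.667 and 0.737 CPM in the 5 ATRA libraries and at 0.992, 0.419, 0.405 and 0.652 CPM in the 4 MEHP + ATRA libraries, against 1.18 to 2.27 CPM (median 1.74) in lower-range vehicle libraries. All 9 treated libraries were below all 9 vehicle libraries. Egr2 fell by 1.17 ± 0.28 with ATRA (adjusted p = 0.00279) and by 1.47 ± 0.31 with MEHP + ATRA (adjusted p = 0.000475), in log2.

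Egr3, a close relative known from lymphocytes and muscle spindles, had the steepest falls of the 10 genes and the fewest reads. MEHP libraries held 0.165 to 0.558 CPM (median 0.413, 3 to 10 reads each), against 0.565 to 1.95 CPM (median 0.912, 10 to 42 reads) in upper-range vehicle libraries. It was the one gene of the 10 with no overlap between these groups, although the highest MEHP and the lowest vehicle library nearly met. The log2 fold change was −1.44 ± 0.34 (adjusted p = 0.00768, edgeR), a call that held in each of 30 fits without 1 library and was lost in a fit of the upper-range libraries alone (adjusted p = 0.0586). With ATRA it was at 0.533, 0.175, 0.401, 0.308 and 0.105 CPM and with MEHP + ATRA at 0.129, 0.0931, 0.225 and 0.163 CPM, against 0.681 to 1.36 CPM (median 0.932) in lower-range vehicle libraries. Both treated groups were wholly below the vehicle group, the co-exposed one with 2 to 5 reads per library. Egr3 fell by 1.62 ± 0.34 in log2 with ATRA (adjusted p = 0.000599) and by 2.62 ± 0.42 with MEHP + ATRA (adjusted p = 9.11e-06, edgeR).

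**Figure D3:**
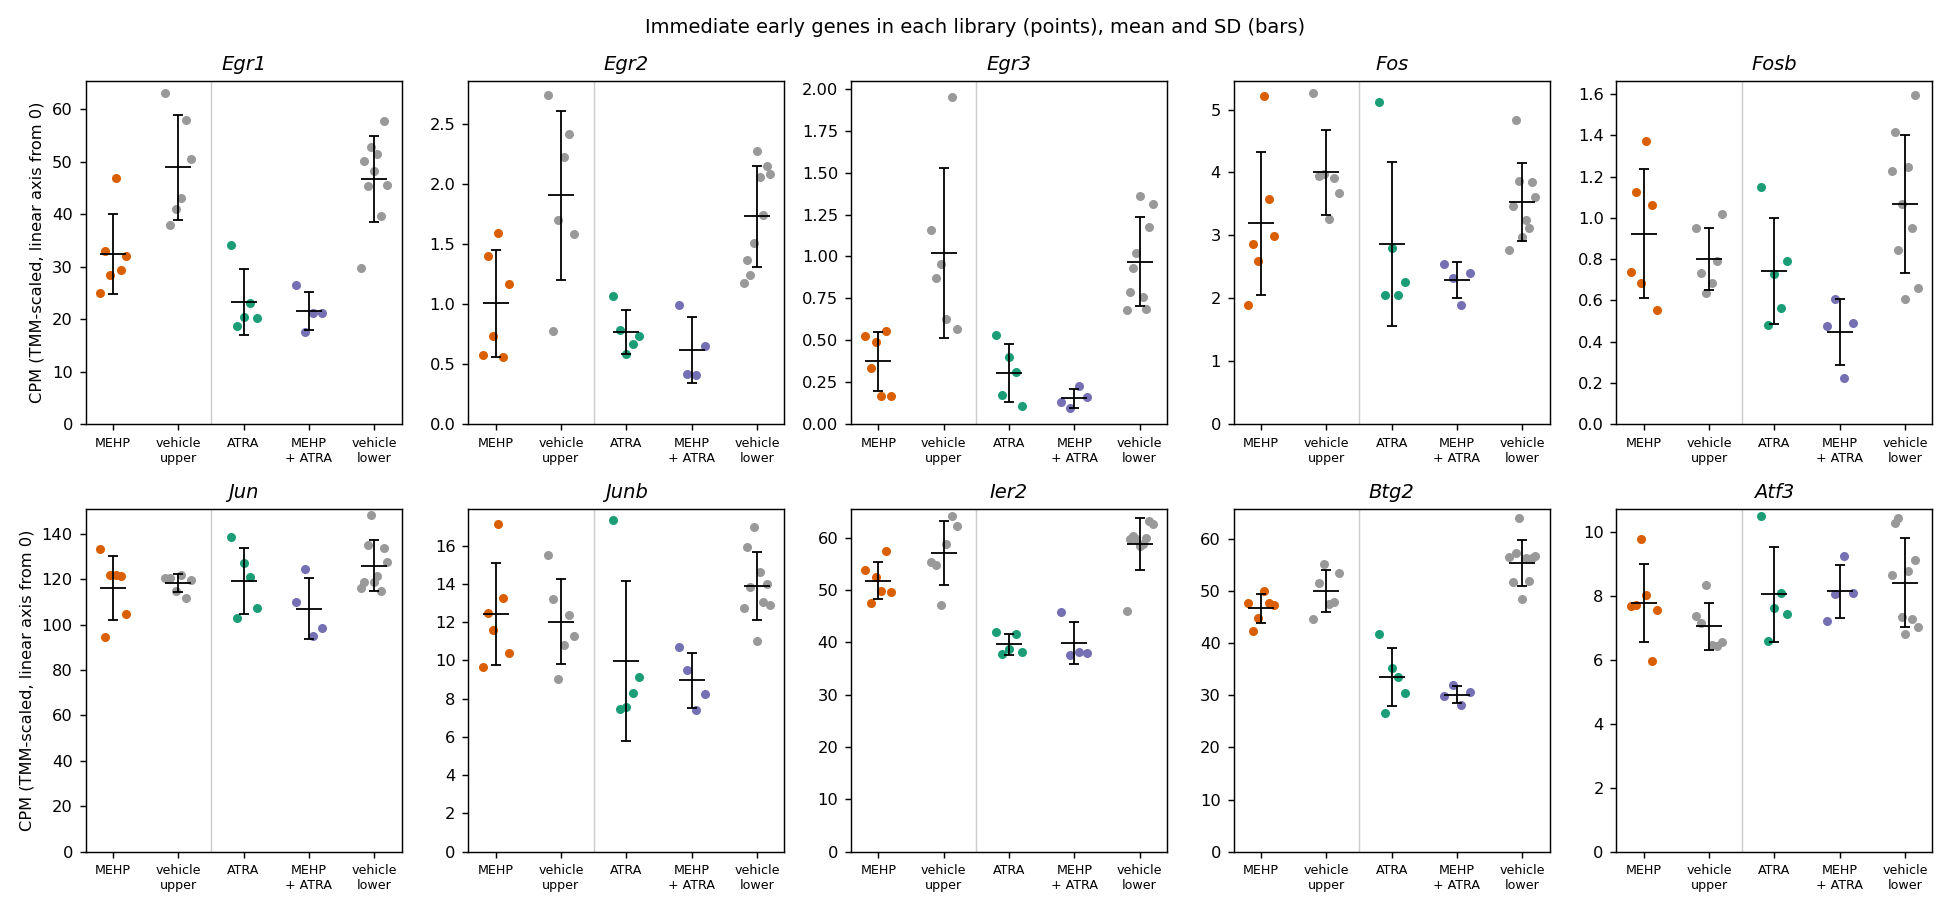
CPM of each immediate early gene in each of the 30 libraries (points) with the mean and SD of each group (bars), on linear axes from 0; MEHP stands beside the 6 upper-range vehicle libraries, and ATRA and MEHP + ATRA beside the 9 lower-range ones. Egr2, Egr3, Ier2 and Btg2 show no overlap between ATRA and vehicle libraries, and ATRA replicate 1 is the highest of its group for every gene, standing farthest apart for Egr1, Fos and Junb.

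Of the 4 AP-1 genes, 0 were called with MEHP, 1 (Junb) with ATRA and 4 with MEHP + ATRA. The shares of all genes tested that were called were 4.72%, 18.1% and 29%. The co-exposure calls of Fos and Jun did not hold in every fit, as given below. Fos, whose protein gives AP-1 dimers their stability, had 1.89 to 5.22 CPM in MEHP libraries (median 2.93), against 3.26 to 5.27 CPM (median 3.92) in upper-range vehicle libraries. The groups overlapped and the log2 fold change of −0.33 ± 0.21 did not pass (95% interval −0.76 to 0.10, adjusted p = 0.505, edgeR). In ATRA libraries Fos had 5.13, 2.05, 2.81, 2.05 and 2.26 CPM and in MEHP + ATRA libraries 2.55, 2.33, 1.89 and 2.40 CPM, against 2.77 to 4.84 CPM (median 3.47) in lower-range vehicle libraries. ATRA replicate 1 was above every vehicle library of its range, 3 of the other ATRA libraries were below all of them, and the 4 co-exposed libraries were below all of them. With ATRA the log2 fold change was −0.30 ± 0.20 (adjusted p = 0.376), and without ATRA replicate 1 Fos passed the test (adjusted p = 0.0181), as it did by limma-voom with sample weights (0.00983). With MEHP + ATRA it was −0.62 ± 0.22 (adjusted p = 0.0335, edgeR). Leaving out any co-exposed library or vehicle replicate 5 ended that call (adjusted p of 0.117 at most). So did fits with no filter on low counts (0.0603) and with a block on the first title number (0.0542).

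Fosb, the second Fos gene of the set and known for its lasting splice form in neurons, was the lowest of the 10 on the TPM scale. MEHP libraries held 0.555 to 1.37 CPM (median 0.899), against 0.636 to 1.02 CPM (median 0.762) in upper-range vehicle libraries, an overlap from end to end (0.20 ± 0.26 in log2, 95% interval −0.35 to 0.74, adjusted p = 0.823). The ATRA libraries held 1.15, 0.480, 0.729, 0.564 and 0.790 CPM and the MEHP + ATRA libraries 0.475, 0.605, 0.225 and 0.489 CPM, against 0.606 to 1.59 CPM (median 1.07) in lower-range vehicle libraries. The ATRA libraries overlapped the vehicle libraries and the co-exposed ones lay just below them. Fosb had −0.52 ± 0.25 with ATRA (adjusted p = 0.163), and fell by 1.25 ± 0.29 in log2 with MEHP + ATRA (adjusted p = 0.00124, edgeR).

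Jun, the main partner of Fos and able to act on the promoter of its own gene, was the most steady of the AP-1 genes. It held 94.4 to 133 CPM with MEHP, against 112 to 122 CPM in upper-range vehicle libraries (−0.02 ± 0.08 in log2, 95% interval −0.19 to 0.14, adjusted p = 0.938, edgeR). Jun had 138, 103, 127, 121 and 107 CPM in ATRA libraries and 110, 124, 94.9 and 98.6 CPM in MEHP + ATRA libraries, against 115 to 148 CPM (median 121) in lower-range vehicle libraries. ATRA libraries lay on both sides of the vehicle median, and 3 of the 4 co-exposed libraries were below all vehicle libraries. The log2 fold change was −0.08 ± 0.08 with ATRA (adjusted p = 0.581) and −0.24 ± 0.08 with MEHP + ATRA (adjusted p = 0.0312, edgeR), or −15.1% in the co-exposed cultures. The second call ended on leaving out MEHP + ATRA replicate 1, 3 or 4 or vehicle replicate 5, 7 or 13 (adjusted p of 0.159 at most). It also ended in fits with no filter on low counts (0.066), no range term (0.0544) or a block on the first title number (0.104).

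Junb, a Jun protein that often opposes Jun in growth control, held 9.63 to 17.1 CPM with MEHP (median 12), against 9.02 to 15.5 CPM (median 11.8) in upper-range vehicle libraries. The groups covered the same span (0.04 ± 0.17 in log2, 95% interval −0.30 to 0.39, adjusted p = 0.947). The ATRA libraries held 17.3, 7.46, 7.58, 8.31 and 9.11 CPM and the MEHP + ATRA libraries 10.7, 9.50, 7.38 and 8.27 CPM, against 11 to 17.0 CPM (median 13.9) in lower-range vehicle libraries. ATRA replicate 1 was above all vehicle libraries, and the other 8 treated libraries were below all of them. Junb fell by 0.48 ± 0.16 in log2 with ATRA (adjusted p = 0.0398, edgeR) and by 0.63 ± 0.18 with MEHP + ATRA (adjusted p = 0.00732). The ATRA call ended on leaving out ATRA replicate 2, 3, 4 or 5 or vehicle replicate 2, 7 or 9 (adjusted p of 0.139 at most) and with no range term (0.0703), and without ATRA replicate 1 the adjusted p was 9.13e-05.

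Ier2 and Btg2 were lower with ATRA and with the co-exposure, with no overlap with vehicle libraries. Ier2 held 47.5 to 57.5 CPM in MEHP libraries (median 51.2), against 47.1 to 64.2 CPM (median 57.2) in upper-range vehicle libraries, with every MEHP library inside the vehicle range (−0.14 ± 0.07 in log2, 95% interval −0.29 to 0.01, adjusted p = 0.365, edgeR). Ier2 reached 42.1, 37.9, 38.7, 41.7 and 38.1 CPM in ATRA libraries and 45.9, 37.7, 38.1 and 38.0 CPM in MEHP + ATRA libraries, against 46.1 to 63.1 CPM (median 59.8) in lower-range vehicle libraries. All 9 treated libraries were below all 9 vehicle libraries, of which replicate 1 stood well below the others and just above the highest co-exposed library. Ier2 fell by 0.57 ± 0.07 in log2 with ATRA (adjusted p = 2.67e-07) and by 0.56 ± 0.08 with MEHP + ATRA (adjusted p = 7.02e-07, edgeR), or −32.5% and −32.1%.

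Btg2, which p53 and growth signals induce and which slows the cell cycle, held 42.3 to 50 CPM with MEHP (median 47.5), against 44.6 to 55.2 CPM (median 49.7) in upper-range vehicle libraries. These overlapped (−0.10 ± 0.08 in log2, 95% interval −0.26 to 0.06, adjusted p = 0.615). The ATRA libraries held 41.7, 26.7, 35.2, 33.5 and 30.4 CPM and the MEHP + ATRA libraries 29.9, 32.0, 28.1 and 30.6 CPM, against 48.4 to 63.9 CPM (median 56.3) in lower-range vehicle libraries. No treated library reached the lowest vehicle library. Btg2 fell by 0.73 ± 0.08 in log2 with ATRA (adjusted p = 9.26e-09, edgeR) and by 0.88 ± 0.08 with MEHP + ATRA (adjusted p = 5.69e-10), the smallest p-values among the 10 genes. Its window, printed above, is the one with the full cAMP response element, and whether this element bears on the fall was not tested.

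Atf3 passed no test. MEHP libraries held 5.97 to 9.77 CPM (median 7.69), against 6.42 to 8.33 CPM (median 6.85) in upper-range vehicle libraries (0.14 ± 0.12 in log2, 95% interval −0.11 to 0.40, adjusted p = 0.675, edgeR). The ATRA libraries held 10.5, 6.59, 7.61, 8.10 and 7.43 CPM and the MEHP + ATRA libraries 7.21, 8.05, 9.23 and 8.10 CPM, against 6.82 to 10.4 CPM (median 8.67) in lower-range vehicle libraries. All 3 groups overlapped, with log2 fold changes of −0.06 ± 0.12 (95% interval −0.31 to 0.18, adjusted p = 0.798) and −0.05 ± 0.13 (−0.31 to 0.21, adjusted p = 0.827). All 3 signs flipped with no range term, and Atf3 differed between the vehicle ranges by −0.26 ± 0.11 (upper minus lower, adjusted p = 0.308).

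The co-exposure was also compared with each compound alone. MEHP + ATRA against ATRA, over 4 and 5 libraries of one range, called 0 of the 10 genes, beside 3% of all genes tested. By edgeR 1 of them had an unadjusted p under 0.05, and DESeq2 and limma-voom called 0 as well. Egr3 had −1.0 ± 0.49 (95% interval −2.02 to 0.02, adjusted p = 0.379) and Fosb −0.73 ± 0.32 (−1.39 to −0.06, adjusted p = 0.305), which leave room for a further fall. The median over the 10 genes was −0.16, beside −0.013 over all genes. MEHP + ATRA against MEHP called 3 genes, all lower, beside 4.23% of all genes called lower (8.29% in either direction). These were Fosb (−1.45 ± 0.39, adjusted p = 0.0163, edgeR), Ier2 (−0.42 ± 0.10, adjusted p = 0.00781) and Btg2 (−0.78 ± 0.11, adjusted p = 1.12e-05), and the call of Fosb was lost without MEHP + ATRA replicate 3 (adjusted p = 0.0569). Egr1 (−0.52 ± 0.23, adjusted p = 0.199), Egr3 (−1.18 ± 0.55, adjusted p = 0.228) and Junb (−0.68 ± 0.25, adjusted p = 0.091) did not pass. Egr1 did with no range term (0.0222), and Junb by limma-voom (0.039) and with a block on the first title number (0.0246). MEHP and ATRA libraries share no range, so this contrast rests on the range term.

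The interaction, the effect of MEHP with ATRA present minus its effect without, called 0 of the 10 genes, beside 0.0311% of all genes tested. By edgeR 1 of the 10 had an unadjusted p under 0.05, and DESeq2 and limma-voom called 0. Egr1 had 0.48 ± 0.25 (95% interval −0.03 to 0.99, adjusted p = 0.9998) and Fosb −0.92 ± 0.42 (−1.78 to −0.06, adjusted p = 0.9998). A test of ATRA against MEHP, added after the data were seen, called 2 genes, both lower, beside 2.21% of all genes called lower (4.36% in either direction). Btg2 was lower with ATRA than with MEHP by a log2 difference of −0.63 ± 0.11 (adjusted p = 0.000283, edgeR) and Ier2 by −0.43 ± 0.10 (adjusted p = 0.00808), each relative to the vehicle libraries of its range. Junb had −0.52 ± 0.23 (adjusted p = 0.264) and passed without ATRA replicate 1 (adjusted p = 0.00627). The vehicle libraries of the upper range against those of the lower range gave 0 calls among the 10 genes, beside 0.373% of all genes. Unadjusted p was under 0.05 for 2 of them, and DESeq2 and limma-voom called 0.

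Single libraries carried part of the spread. ATRA replicate 1 was above the mean of its group for 10 of 10 genes, by 0.53 in log2 on average, and vehicle replicate 13 was above the mean of its range for 10 of 10, by 0.21. ATRA replicates 2 and 5 were above their group's mean for 1 gene each. Within groups, Egr3 varied with a residual SD of 0.52 and Egr2 with 0.48 in log2, while Ier2 had 0.13, Btg2 0.14 and Jun 0.14. The standing level goes with this spread, since the 3 steadiest genes are also the 3 with the highest TPM.

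**Figure D4:**
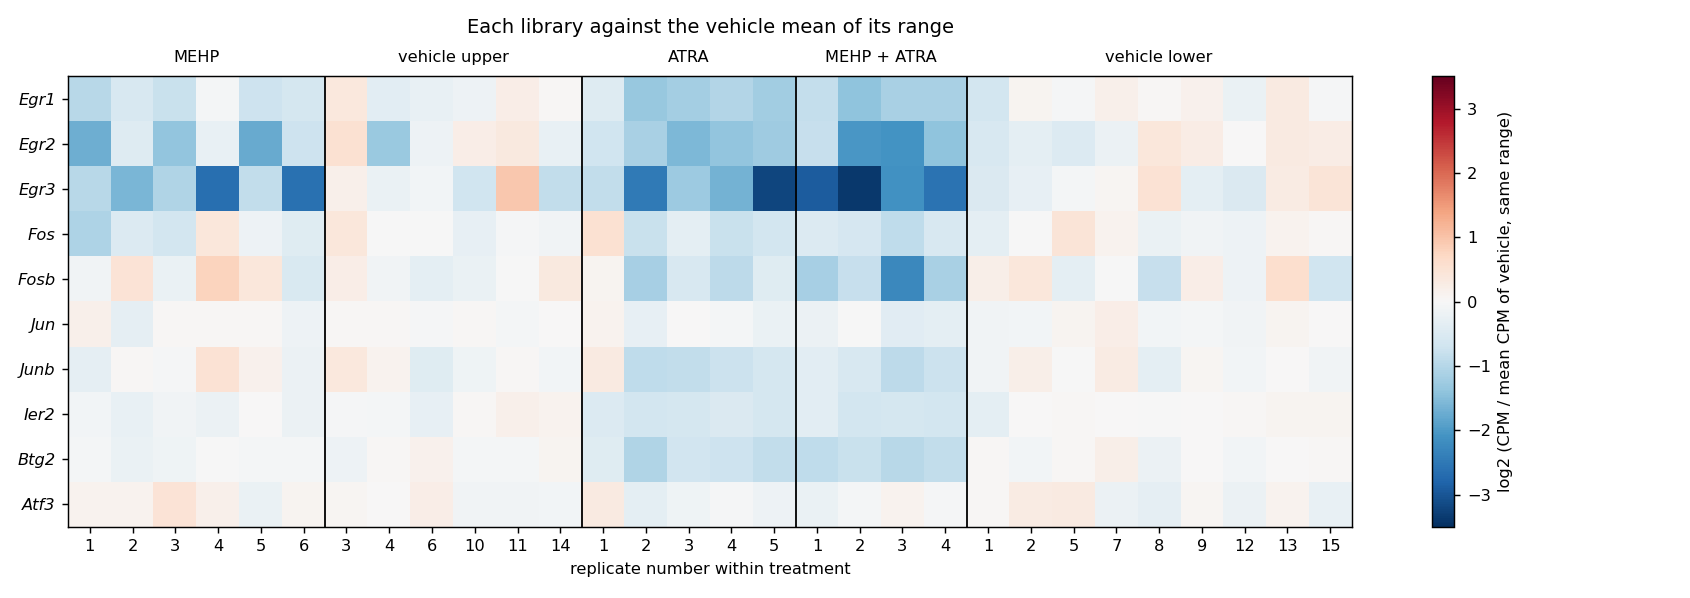
Log2 ratio of each library's CPM to the mean CPM of the vehicle libraries of its range, for the 10 immediate early genes (rows) and 30 libraries (columns, numbered by replicate within treatment); blue is lower and red higher. Egr1, Egr2 and Egr3 are blue in nearly all treated libraries, Ier2 and Btg2 are blue in all ATRA and MEHP + ATRA libraries, and ATRA replicate 1 is red or paler than the rest of its group.

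After the mean of each group and range was removed, the genes of 45 pairs had Pearson r from −0.24 to 0.79 over the 30 libraries, with a median of 0.29. The points share library depth and handling, and the values are a description with no test. Fos and Junb had the highest r, 0.79 (Spearman rho 0.67, and r = 0.61 without the 2 libraries farthest from the median of Fos), followed by Egr1 and Fos at 0.70 and Egr1 and Egr2 at 0.70. In all 8 pairs were over 0.5, and 6 without ATRA replicate 1. Among 13161 genes whose log2 CPM averaged 1 or more, those most like Egr1 in these residual values were Cabp1 (r = 0.77), Nr4a1 (0.77) and Slc44a2 (0.75). Those most like Fos were Ccn1 (0.76), Lrrc8c (0.76) and Epha2 (0.73). Those most like Jun were Rhob (0.84), Tle3 (0.83) and Daam2 (0.82), and those most like Btg2 were Nt5e (0.71), Dennd4c (0.69) and Hs2st1 (0.68). Nr4a1, Ccn1 and Rhob are themselves known immediate early genes.

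Among 46 other immediate early genes, taken as a list and all tested, calls went in both directions. The MEHP comparison called 6 higher and 1 lower, the ATRA comparison 2 and 12, and the co-exposure 9 and 13 (median log2 fold changes 0.04, −0.16 and −0.10). These calls make up 15.2%, 30.4% and 47.8% of the list, beside 4.72%, 18.1% and 29% of all genes tested. Dusp6, the ERK phosphatase, averaged 66.6 CPM in MEHP libraries and 42.6 CPM in their vehicle libraries (0.64 ± 0.08 in log2, adjusted p = 1.95e-06, edgeR) and rose by 0.59 ± 0.08 with MEHP + ATRA. Dusp5, a nuclear ERK phosphatase, stood at 22.6 CPM with ATRA and 28.3 CPM with MEHP + ATRA, against 14.0 CPM in vehicle (0.70 ± 0.10 and 1.02 ± 0.10). Trib1, a pseudokinase, rose under all 3 treatments by 0.50 ± 0.08, 0.44 ± 0.08 and 0.73 ± 0.08. The polo-like kinase gene Plk2 rose by 0.65 ± 0.13 with MEHP.

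Those that fell with ATRA included Gem, a small GTPase gene, Fosl2, another gene of the Fos family, and Myc. Gem stood at 26.4 CPM with ATRA and 23.0 CPM with MEHP + ATRA, against 43.9 CPM in vehicle (−0.73 ± 0.09 and −0.93 ± 0.10). Fosl2 stood at 101 and 94.3 CPM, against 155 CPM in vehicle (−0.62 ± 0.08 and −0.72 ± 0.09). Myc had −0.49 ± 0.10 with ATRA and Ier5, a relative of Ier2, −0.56 ± 0.08 with MEHP + ATRA, all with adjusted p of at most 0.000286 (edgeR). Arc, a synaptic gene, was the one that fell with MEHP (−0.68 ± 0.20, adjusted p = 0.039), and its call was lost in 6 of 30 fits without 1 library (adjusted p up to 0.125), with no filter on low counts (0.0751), with no range term (0.0586) and with upper-range libraries alone (0.246).

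**Figure D5:**
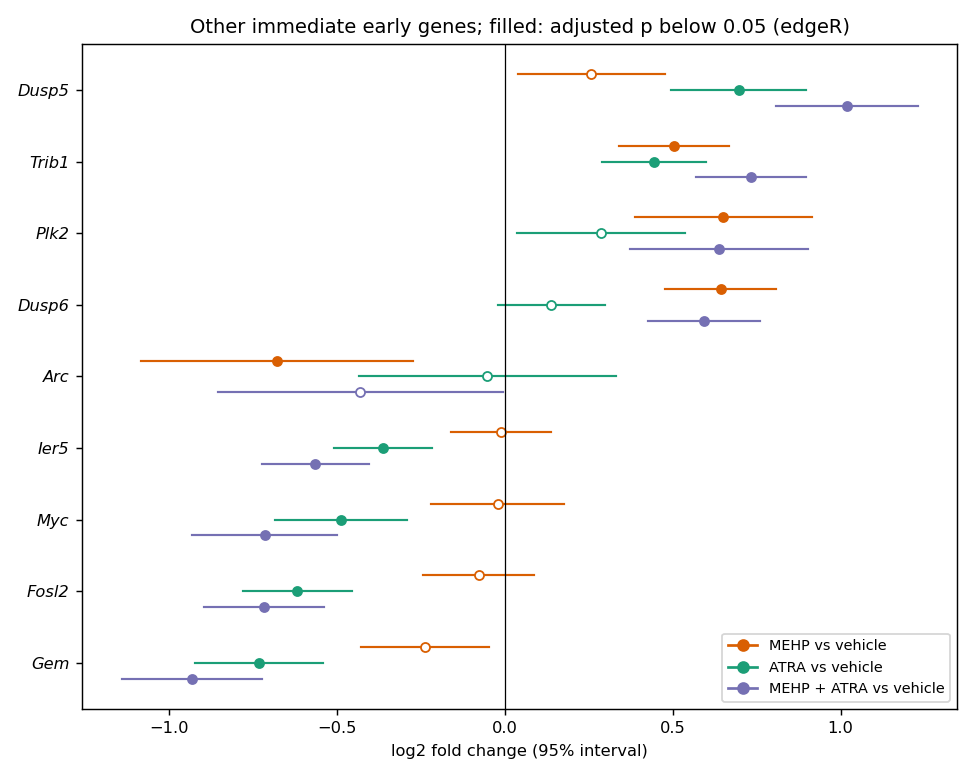
Log2 fold changes with 95% intervals of 9 other immediate early genes, those with the smallest p in each direction and comparison, against the vehicle libraries of the same range; filled points had an adjusted p under 0.05 (edgeR). Dusp5, Trib1, Plk2 and Dusp6 lie right of 0 and Gem, Fosl2, Myc and Ier5 lie left of 0 with ATRA and MEHP + ATRA.

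Of 19 upstream regulators, 1 was higher with MEHP, 1 higher and 5 lower with ATRA, and 3 higher and 3 lower with MEHP + ATRA. Their products act upstream of immediate early promoters, and the shares called, 5.26%, 31.6% and 31.6%, were near those of all genes (4.72% and 29%) for MEHP and the co-exposure and above that of all genes (18.1%) for ATRA. Srf, the serum response factor gene, fell by 0.36 ± 0.08 in log2 with MEHP + ATRA, to 72.2 CPM in co-exposed libraries, against 92.9 CPM in vehicle (adjusted p = 0.000598, edgeR). Mef2a, which encodes a MEF2 factor, had −0.22 ± 0.04 with ATRA and −0.30 ± 0.05 with MEHP + ATRA. Map2k1, the gene of the ERK kinase MEK1, had −0.20 ± 0.05 with ATRA (adjusted p = 0.00717) and −0.15 ± 0.06 with MEHP + ATRA (adjusted p = 0.0497), the second lost in 25 of 30 fits without 1 library (adjusted p up to 0.177), by DESeq2 (0.0622), with RLE scaling (0.0596) and with no filter (0.173). Creb3l2, of the ATF and CREB class, had −0.24 ± 0.06 with ATRA. The kinase genes Rps6ka1 (0.28 ± 0.07 with MEHP), Mapk14 (0.13 ± 0.04 with ATRA and 0.16 ± 0.04 with MEHP + ATRA), Rps6ka3 (0.21 ± 0.06) and Mapk8 (0.16 ± 0.05, both with MEHP + ATRA) were higher. The ATRA call of Mapk14 was lost in 2 of 30 fits without 1 library (adjusted p up to 0.105), with no filter (0.107) and with a block on the first title number (0.0776). The call of Mapk8 was lost in 1 of 30 fits without 1 library (0.122), and that of Rps6ka3 with no range term (0.0513).

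A list of 12 genes held AP-1 partners, EGR corepressors and genes of the deadenylase that Btg2 recruits. Of these 12, 0 were called with MEHP, 1 higher and 3 lower with ATRA, and 0 higher and 2 lower with MEHP + ATRA. The share called was 33.3% with ATRA, above the 18.1% of all genes, and 16.7% with MEHP + ATRA, below the 29% of all genes. Nab2, a corepressor that EGR proteins induce and that binds them, stood at 93.5 CPM with ATRA and 84.2 CPM with MEHP + ATRA, against 115 CPM in vehicle (−0.30 ± 0.07 and −0.45 ± 0.08, adjusted p = 0.00211 and 2.4e-05, edgeR). Its paralog Nab1 had −0.18 ± 0.06 with ATRA (adjusted p = 0.0282). This call was lost with no filter (0.0631), with a block on the first title number (0.0701) and in 5 of 30 fits without 1 library (adjusted p up to 0.0959). The AP-1 partner gene Batf3 had 0.39 ± 0.13 with ATRA, a call lost in 11 of 30 such fits (up to 0.141) and with no filter (0.0615).

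Stress programmes that immediate early genes take part in were read beside them. Of 11 heat shock genes, 0 were higher under any treatment, 0 were lower under MEHP, 1 was lower under ATRA and 3 under both compounds. The share lower was 9.09% under ATRA, near the 9.03% of all genes, and 27.3% under both compounds, beside 14.7%. Hspb1, a small chaperone gene, had −0.53 ± 0.09 with ATRA and −0.67 ± 0.10 with MEHP + ATRA. Hspa1b (−0.66 ± 0.15) and Hspa1a (−0.71 ± 0.21, both with MEHP + ATRA) are near-identical copies, and how their reads were split is uncertain. Of 12 p53 targets, 0 were lower under MEHP, 4 under ATRA and 2 under both compounds, and 0 were higher. The share lower was 33.3% under ATRA, beside 9.03% of all genes, and 16.7% under both compounds, near the 14.7% of all genes. The BH3-only genes Pmaip1 (−1.99 ± 0.37) and Bbc3 (−0.41 ± 0.10) fell with MEHP + ATRA, and with ATRA Bbc3 had −0.40 ± 0.09, Cdkn1a −0.41 ± 0.13 and Pmaip1 −0.97 ± 0.31. Leaving out single libraries ended the ATRA call of Cdkn1a in 1 of 30 fits (adjusted p = 0.0753) and of Pmaip1 in 2 (up to 0.0835), and both calls ended with no range term (0.0631 and 0.0681).

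Of 12 targets of ATF4, the factor that induces Atf3 under amino acid stress, 2 were higher with MEHP, 5 higher and 1 lower with ATRA, and 9 higher and 1 lower with MEHP + ATRA. These are 16.7%, 50% and 83.3% of the list, beside 4.72%, 18.1% and 29% of all genes. Trib3 stood at 30.1 CPM with MEHP + ATRA and 13.5 CPM in vehicle (1.16 ± 0.11, adjusted p = 3.93e-10, edgeR), and rose by 0.52 ± 0.11 with MEHP and 0.50 ± 0.10 with ATRA. The serine and asparagine synthesis genes Psat1 (1.07 ± 0.11) and Asns (1.08 ± 0.12) rose with MEHP + ATRA, and Psat1 had 0.47 ± 0.11 with ATRA. Chac1, a glutathione-degrading enzyme gene, rose by 0.94 ± 0.20 with MEHP, and Cebpb by 0.55 ± 0.17 with ATRA, a call lost in 2 of 30 fits without 1 library (adjusted p up to 0.116). Ddit4, an inhibitor of mTOR, had −0.31 ± 0.08 with ATRA and −0.53 ± 0.09 with MEHP + ATRA. Atf3 passed no test in the same comparisons, as given above.

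Markers of several cell types changed in the same comparisons. Of 10 Sertoli markers, 4 were higher and 1 lower with MEHP, 7 higher and 1 lower with ATRA, and 7 higher and 1 lower with MEHP + ATRA, with median log2 fold changes of 0.37, 0.59 and 0.92. These calls make up 50%, 80% and 80% of the list, beside 4.72%, 18.1% and 29% of all genes tested. For 7 of the 10, every ATRA library lay above every lower-range vehicle library, and likewise every co-exposed library for 7. The share of all genes with such a separation upwards is not given here. The summed Sertoli level nonetheless overlapped, at 2280 to 2636 CPM with ATRA and 2172 to 2872 CPM with MEHP + ATRA, against 1841 to 2770 CPM in lower-range vehicle libraries. Of 8 germ cell markers, 1 was higher with ATRA (12.5%, below the 18.1% of all genes called). With MEHP + ATRA, 1 was higher and 2 lower (37.5%, beside 29%). Of 7 Leydig markers, 1 was higher in each of these comparisons (14.3%), below the share of all genes called in both. Of 8 interstitial markers, 6 were lower with ATRA and 6 with MEHP + ATRA, and 0 higher. The share lower was 75% in each, beside 9.03% and 14.7% of all genes. Their summed level was 4450 to 5360 CPM in ATRA and 4265 to 4638 CPM in MEHP + ATRA libraries, against 6584 to 7166 CPM in lower-range vehicle libraries, with no overlap. None of the 8 interstitial markers was at 0 in any library. Of 7 peritubular myoid markers, 3 were lower with ATRA and 5 with MEHP + ATRA (42.9% and 71.4%, beside 9.03% and 14.7% of all genes). Their sums of 432 to 492 CPM and 373 to 466.2 CPM overlapped the 419 to 542 CPM of vehicle libraries. With MEHP, 1 of 8 interstitial and 1 of 7 myoid markers were lower (12.5% and 14.3%, beside 1.84% of all genes). Of 9 endothelial markers, 4 were higher with MEHP (44.4%, beside 4.72% of all genes in either direction). Endothelial sums were 205 to 354 CPM in MEHP libraries and 186 to 308 CPM in upper-range vehicle libraries. In such whole-organ samples, fewer cells of a type and less RNA per cell cannot be told apart, and the part of the Sertoli and interstitial shifts in the lower levels of immediate early genes was not tested.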

How the data were processed

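RNA of 30 samples of cultured testis was read as poly(A)-enriched libraries (NEBNext Ultra II), per the labels' protocols. The values the authors deposited are counts of reads for each gene, not normalized, with 1 table for each library and the columns that featureCounts writes, per the file headers. The submitters' processing notes name bcl2fastq 2.20 and Trimmomatic 0.36, then STAR 2.5.2b as well as DESeq2, and Subread 1.5.2 with featureCounts. The build, the annotation and the strand setting were not given in the labels or headers used here. Reads of overlapping or near-identical genes may thus be shared or split. Symbols matched 99.3% of identifiers. The files held 0 columns of other samples.

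Genes were kept by edgeR's filterByExpr (minimum count 10), which left 19323, and scaled by TMM (factors 0.975 to 1.023). One edgeR 4.0.16 quasi-likelihood fit in R 4.3.3 held group and title range over all 30 libraries, with 25 residual degrees of freedom. Tests were two-sided F tests with Benjamini-Hochberg adjustment over all genes tested. Every adjusted p is from this test unless another is named. Standard errors were derived from the F statistic. Alternatives were RLE and upper quartile scaling, DESeq2 1.42.0, limma-voom 3.58.1 with sample weights, no filter, no range term, libraries of 1 range, a replicate block and leaving out each of 30 libraries. ATRA against MEHP was added after the data were seen. Fits were tested on simulated data. The 10 genes and all lists were chosen with earlier results of these data known. Other genes were named by rule: up to 3 called genes with the smallest p per list, direction and treatment, and the 3 genes with the highest residual correlation to each of Egr1, Fos, Jun and Btg2. Emx2 was named for its part in a marker sum. No 2 libraries of a group agreed within sampling noise: the lowest chi-square per gene over 82 pairs was 2.84. The values of 1 gene counted in a list are not reported here.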

Additional observations from a re-analysis of the deposited data

Results flagged for a closer look

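In 7 of 50 gene and group combinations of 4 to 9 libraries, 1 library lay apart from the rest of its group by Dixon's criterion, which chance alone would meet in about 1 of 20. Egr1 was high in MEHP replicate 4, at 46.8 CPM, and in ATRA replicate 1, at 34.2 CPM. ATRA replicate 1 was also the high library for Fos, at 5.13 CPM, and for Junb, at 17.3 CPM. Fos was high in vehicle replicate 3, at 5.27 CPM. Ier2 was high in MEHP + ATRA replicate 1, at 45.9 CPM, and low in vehicle replicate 1, at 46.1 CPM. Without ATRA replicate 1, Fos passed the test with ATRA (adjusted p = 0.0181, edgeR). What sets these libraries apart was not tested.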

How the results depend on the processing

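The number of the 10 genes called with MEHP, 2, was 0 when only upper-range libraries were fitted and 1 to 3 over fits without 1 library. With ATRA it was 5 to 7 and with MEHP + ATRA 7 to 9 in such fits, 2 to 4 against MEHP, 2 to 3 for ATRA against MEHP, and 0 throughout for MEHP + ATRA against ATRA, the interaction and the vehicle ranges.

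Over all genes, counts moved by more than 1.5 times in these fits. MEHP called 912 genes, 2229 with no range term and 439 with 1 range only. ATRA called 3494, and 5527 by limma-voom. MEHP + ATRA against ATRA called 579, 1653 by limma-voom, 967 with 1 range only and 340 to 689 without 1 library. MEHP + ATRA against MEHP called 1601, and 3181 with no range term. The interaction called 6, 10 by limma-voom, 10 with no range term, 2 with the replicate block and 3 to 8 without 1 library. The vehicle ranges differed in 72 genes, 343 by DESeq2, 136 by limma-voom, 19 with no filter and 10 to 169 without 1 library. ATRA against MEHP called 843, 1468 by limma-voom and 2981 with no range term. The causes were not tested.

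Signs turned only in values that had passed no test. With no range term these were Fosb (−0.073), Junb (−0.084) and Atf3 (−0.016) with MEHP, Atf3 with ATRA (0.032) and Atf3 with MEHP + ATRA (0.049). By limma-voom Junb had −0.028 with MEHP. Without 1 library, Jun with MEHP ran from −0.066 to 0.029, Junb with MEHP from −0.068 to 0.13 and Atf3 with MEHP + ATRA from −0.11 to 0.013. The median of the 10 genes in the interaction was −0.025, and was 0.064 by limma-voom, 0.036 with no range term, 0.014 with the replicate block and −0.11 to 0.14 without 1 library.

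Of 29 pairs of libraries with the same first title number within a range, 15 had a residual correlation over 0.1 (−0.11 to 0.75, median 0.10), against 18 of 108 pairs with different numbers (median −0.013). Pairs with the same number thus leaned higher. Pairing was taken as shown only where every pair was over 0.1, so the main fit did not treat the number as a pairing. That rule is strict, and missing it does not show that the libraries are unpaired. With a replicate block on it, 2 of the 10 genes were called with MEHP, 6 with ATRA, 7 with MEHP + ATRA (Fos, adjusted p = 0.0542, and Jun, 0.104, did not pass) and 4 for MEHP + ATRA against MEHP (Junb, 0.0246, did). Mapk14 (0.0776) and Nab1 (0.0701) with ATRA did not pass. Fits of 1 range could not be made for comparisons across ranges, nor the block and no-range fits for the vehicle ranges. At 2 to 13 reads per treated library, counting limits what Egr3 can show.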
